A study of Hydra vulgaris with 40 samples.

Results

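The foot-specific genes of Hydra vulgaris, a freshwater cnidarian polyp, are the 150 genes of the 17438 with values whose level stood highest in foot over the next tissue of a body map. Their members were chosen by measured values: the mean of both samples of a tissue plus 1 had to be highest in foot and at least 1.5 times that of the second tissue, the foot mean had to be at least 5, and of the 343 genes that met these limits the 150 with the largest ratio were taken. RNA-seq was done on 40 samples in 20 conditions with 2 samples apiece. The tissues sampled in adults, called the body map here, were foot, hypostome (the mouth region), tentacles, body column and budding zone. Budding was followed in 8 stages numbered 1 to 10 (stages 2 and 9 are not analysed here), with RNA from the head end of the bud. Regeneration was followed in polyps cut at the border of regions R1 and R2 and left to regrow a head over 7 times from 0 to 48 h, after which the R2-R3 piece of 1 animal was taken per sample. All polyps were untreated apart from the cut, were fed brine shrimp larvae and had been starved for at least 1 day. The labels call the samples of a condition replicates and give neither a strain nor the number of animals in a body map or bud sample, and p-values measure only the spread between these samples. Values are TPM (a level per transcript length, scaled to a fixed total) that the authors had adjusted for batch and distribution. A value of 0 is written below as listed at 0, and the depth of the libraries is unknown.

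The Hydra foot ends in the basal disc, an adhesive pad whose outer epithelial cells are glandular and secrete the mucus that holds the polyp to its substrate. Cells of the body column divide and are displaced toward both ends, and those that reach the lower end stop dividing and turn into basal disc cells. A bud grows out of the lower body column, forms its head first and completes a foot at its base shortly before it leaves the parent. A polyp that is cut across regrows a head at the upper cut surface. None of the 17438 gene IDs is paired with a gene name in the reference table used here (0 matched), so the members are given by ID, no role can be stated for them, and known foot genes could not be looked up by name. Opsins, the light-sensing receptors that the study was about, could be tied to an ID among the values for 2 genes by the ID listed for them, and 0 of these are members. The foot label was therefore checked only by the members' own levels in the other tissues, which the choice of members had used.

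In the foot the members ran from 5.16 to 7486 with a median of 40.1 (mean of 2 samples each). The foot mean was at least 1000 for 15 members, at least 100 for 47 and at least 10 for 124, and it lay under 10 for 26. The median member stood at percentile 85.2 of all genes in foot. Together the members summed to 52250 in foot replicate 1 and 59558 in foot replicate 2, which is 5.24% and 5.97% of those samples. The 10 highest members held 63.1% and 66.0% of these sums. In the other 8 body map samples the members made up between 0.0150% and 0.0866% of the total. This contrast follows from the way the members were chosen and carries no test.

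The highest ratio belonged to Sc4wPfr_1300.g9819, with 7367 and 7605 in the foot samples. It was listed at 0 in all 8 other body map samples and in all 14 regeneration samples. The next, Sc4wPfr_14.g1771, had 2811 and 4321 in foot and was likewise listed at 0 in those 22 samples. At the lower end, the last members taken were Sc4wPfr_739.g28783, with a ratio of 4.19 (foot 10.7 and 21.2, hypostome mean 3.05), and Sc4wPfr_488.g29968, with a ratio of 4.11 (foot 7.66 and 6.30, budding zone mean 0.940). Just outside stood Sc4wPfr_33.g25265 at 4.08, with 169 and 119 in foot and a mean of 34.5 in budding zone, and Sc4wPfr_79.3.g21347 at 4.04, with 119 and 42.5 in foot and 19.2 in tentacles. The genes on both sides of the limit were thus close in ratio, while those just outside were higher in foot and in their second tissue.

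The members differed in how far they were found outside the foot. Of the 150, 59 were listed at 0 in all 8 other body map samples. Among the other 91 the second tissue was budding zone for 33, tentacles for 26, hypostome for 21 and body column for 11. A mean above 1 was found for 35 members in budding zone, 28 in hypostome, 28 in tentacles and 24 in body column. The second tissue was therefore at the head end for some members and in the trunk for others. The foot samples of a member were above the other 8 samples in all 150 cases, which the rule all but fixes.

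The foot samples agreed to less than 2-fold on log2(value + 1) for 139 members. Replicate 2 minus replicate 1 had a median of 0.21 on that scale and ranged from -2.35 to 1.69 (SD 0.53 over the members), and 111 members were higher in replicate 2. Choosing 150 genes from replicate 1 alone gave 138 of the members, and replicate 2 alone gave 139. The lists from the separate replicates shared 128 genes of 150 each. All 150 genes chosen in replicate 1 met the ratio of 1.5 in replicate 2, and 149 of those chosen in replicate 2 met it in replicate 1.

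**Figure D1:**
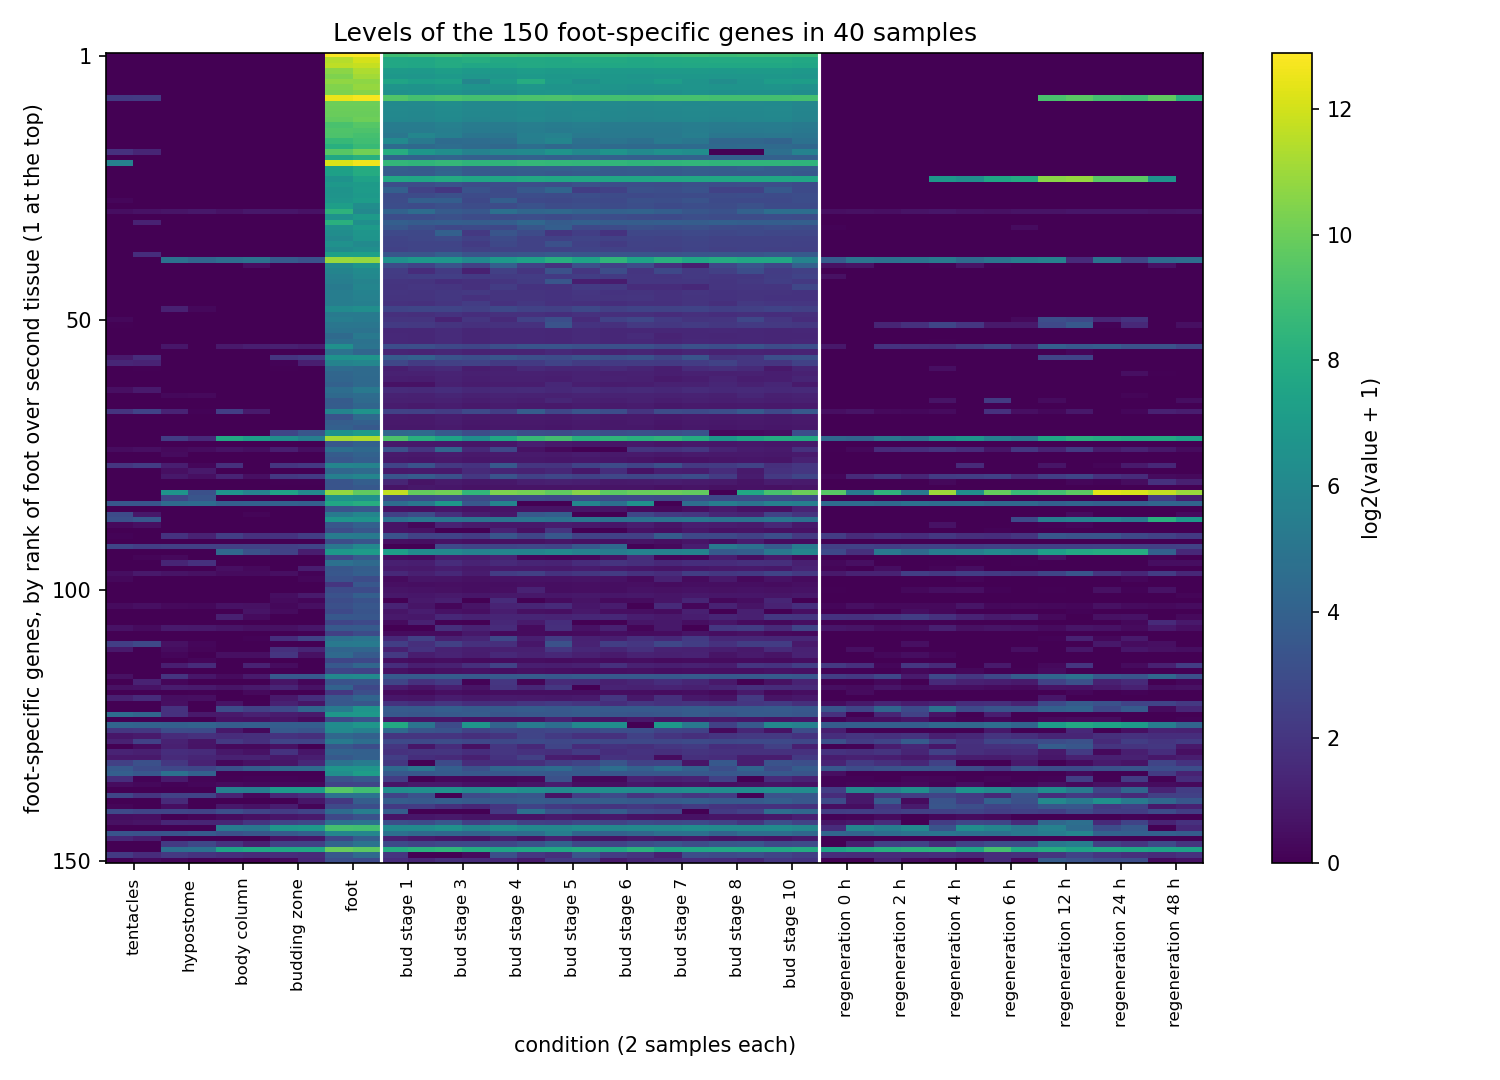
Level of each of the 150 members (rows, by rank of foot over second tissue) in the 40 samples (columns, 2 per condition), as log2(value + 1) by color. Foot samples form the bright band, the bud samples a paler one with the same order of rows, and most rows are listed at 0 in regeneration apart from a few that light up at 12, 24 and 48 h.

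Over the body map and regeneration the foot mean was the highest for 140 members. The other 10 were highest during regeneration, 6 at 12 h, 3 at 24 h and 1 at 48 h, with a peak of 130% to 1328% of their foot mean.

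The level of the members in buds could not be read as expression. In bud samples, 132 members were above 0 in all 16 samples, including genes listed at 0 in every sample outside foot and buds. There were 50 such members, a subset defined after the values were seen. Their mean over the 16 bud samples was 5.95% to 7.67% of their foot mean, with a median of 6.25%. Sc4wPfr_1300.g9819 had a lowest bud value of 443, a median of 469 and a highest of 560, and Sc4wPfr_14.g1771 had 196, 225 and 263. This share held over foot levels from 6.71 to 7486. For the other 100 members the bud mean was 6.17% to 159% of the foot mean and 0.73 to 1.30 times the mean over the 24 samples outside the budding course (median 0.89), and the median of that ratio over all genes was 0.98. The values had been adjusted across batches before deposit, and the part of that step in the bud levels was not tested. Only changes within the budding course are compared below.

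**Figure D2:**
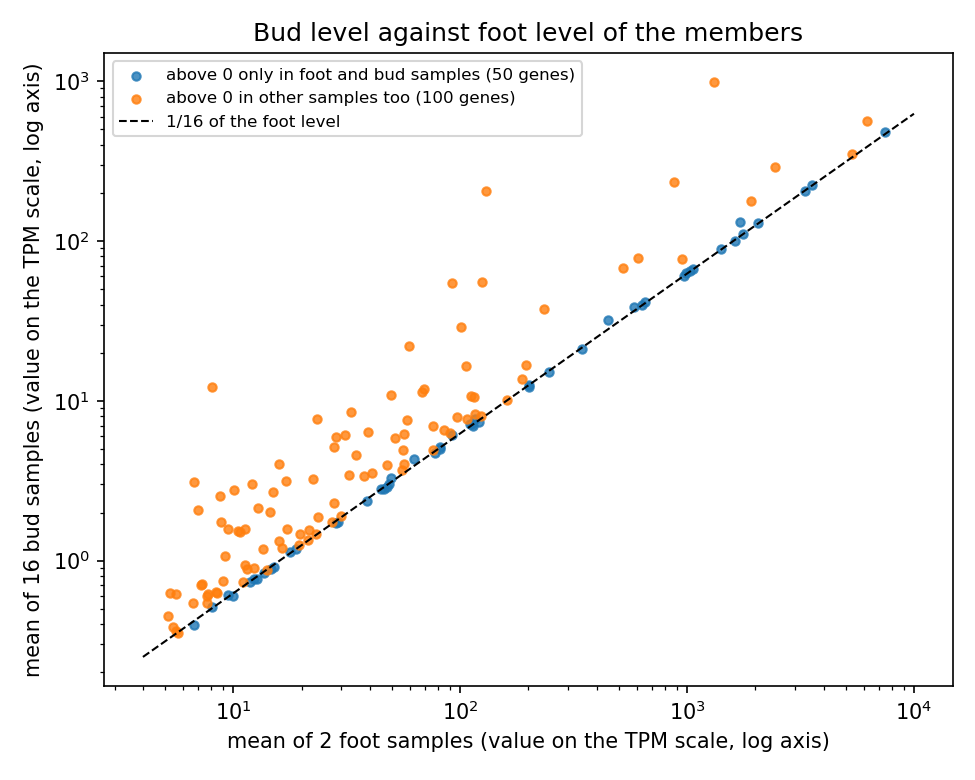
Mean of the 16 bud samples (y, log axis) against the mean of the 2 foot samples (x, log axis) for each member, both on the TPM scale. The 50 members above 0 in foot and bud samples and nowhere else (blue) lie along the dashed line at a fixed share of the foot level, 5.95% to 7.67%, while the other 100 (orange) lie between 6.17% and 159% of it.

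Few members passed a test of change within budding. Across the 16 bud samples 70 of the 150 members varied by less than 2-fold, 38 of the 50 found in no sample outside foot and buds and 32 of the other 100. The coefficient of variation over the bud samples had a median of 7.43% in the first set and 36.6% in the second, beside 28.8% over all genes. The slope over the order of the 8 stages (limma on log2(value + 1), p adjusted by Benjamini-Hochberg over all 17438 genes, two-sided) passed an adjusted p of 0.05 in the upward direction for 0 members and downward for 2, and 16 members had an unadjusted p under 0.05. Over all genes 6.22% rose and 0.304% fell. The 0 rises became 1 with stage numbers in place of their order, 3 without stages 6 and 7 and 4 with the last stage against the first. The sorted values of stages 6 and 7 were crossed between these stages, and whether their samples had been exchanged was not tested. The median slope was -0.0089 per stage step for the members and 0.0052 for all genes. The slopes of the 50 members found in no sample outside foot and buds are part of these counts, but as their bud values stood at a near fixed share of the foot level, nothing about budding is read from them.

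Both members that fell in budding were above 0 in the budding zone, the part of the body column from which buds grow. Of the 150 members, 35 had a mean above 1 there and 84 were listed at 0 in both samples. A link between that tissue and the falls was not tested. Sc4wPfr_47.1.g2198 had 19.8 and 21.0 at stage 1, then 6.91 to 11.2 in the 10 samples from stage 3 to stage 7, 0.24 and 0.28 at stage 8, and 0.40 and 7.37 at stage 10. Its slope was -0.40 per step (SE 0.093, adjusted p 0.0322). Sc4wPfr_958.g18779 had 20.3 and 9.41 at stage 1, 0.26 and 1.59 at stage 8, and 0.53 and 7.09 at stage 10, with a slope of -0.30 (SE 0.079, adjusted p 0.0391). For both genes the samples of stage 8 lay below the samples of stage 1, and the stage 10 samples lay far apart. In adults the first had 94.8 and 138 in foot and 5.52 and 9.61 in budding zone, and the second 66.0 and 47.4 in foot and 11.1 and 9.09 in budding zone. The second also had means of 6.66 in hypostome, 3.15 in tentacles and 0.505 in body column. The bud mean of the first was 7.06% of its foot mean, within the 5.95% to 7.67% of the 50 members found in foot and buds alone. The coefficient of variation of its bud values was 70.5%, and whether they can be read as expression was not tested. Each call was lost without either sample of stage 1, either sample of stage 8 or replicate 1 of stage 10 (0 members then fell, adjusted p 0.0563 to 0.146), and 4 members fell without replicate 2 of stage 7. Under quantile normalization of all samples 28 members fell, 12 of them among the 50, and the share of all genes changed too, with 1006 rising and 1700 falling in place of 1085 and 53.

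The last step of budding, in which the foot of the bud is completed, moved 1 member. Sc4wPfr_155.g16881 was listed at 0 in both stage 8 samples and had 24.9 and 50.8 at stage 10, a difference of 5.19 (SE 0.43) in mean log2(value + 1) with a limma adjusted p of 0.00486. Over all genes 0.0172% were higher and 0.00573% lower at stage 10, so that this gene was 1 of 3 that rose. It had been higher still in all samples of the stages before 8, with 262 and 114 at stage 1 and a lowest value of 51.4 at stage 3. In foot it had 754 and 1139, against 2.60 and 1.52 in tentacles. It was listed at 0 in the 6 samples of the remaining body map tissues and in all regeneration samples. Its bud mean was 8.11% of its foot mean, near the 5.95% to 7.67% of the 50 members found in foot and buds alone. The coefficient of variation of its bud values was 77.5%, and whether they can be read as expression was not tested. No member fell between these stages, and 10 had an unadjusted p under 0.05. The call was lost without replicate 1 of stage 8 (adjusted p 0.0542), and 2 members rose without replicate 2 of stage 8 or without replicate 1 of stage 10. The bud samples are of the head region, so the foot of the bud itself was not sampled by label.

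**Figure D3:**
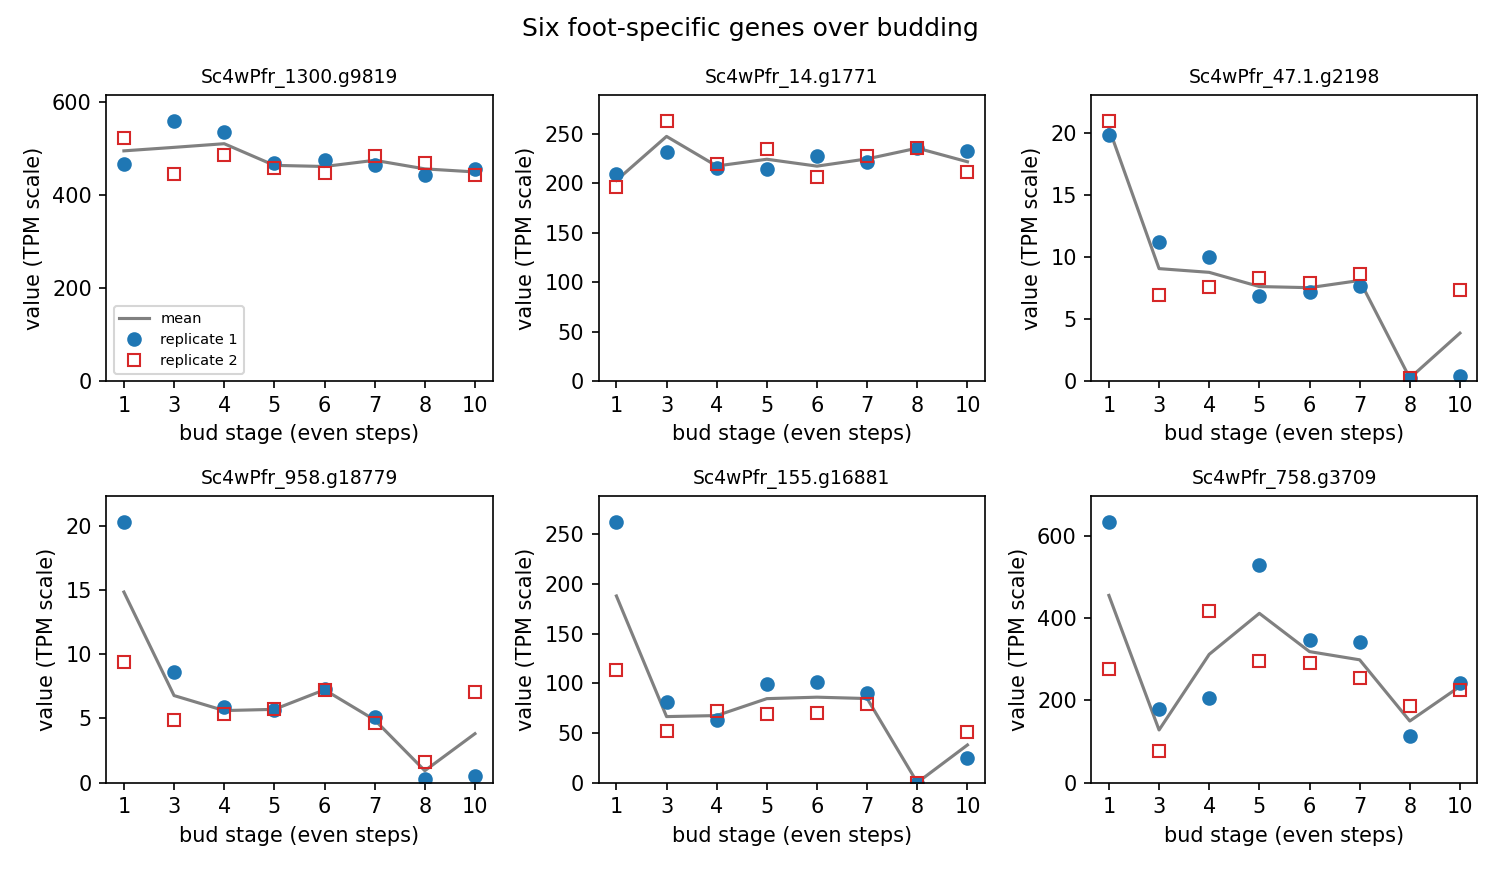
Values on the TPM scale (y) of 6 members over the 8 bud stages (x, even steps), with a point for each sample and a line through the mean of 2. Sc4wPfr_1300.g9819 and Sc4wPfr_14.g1771 are among the 50 members whose bud values cannot be read as expression and are shown for comparison, Sc4wPfr_47.1.g2198, Sc4wPfr_958.g18779 and Sc4wPfr_155.g16881 dip at stage 8, and both samples of Sc4wPfr_758.g3709 differ widely at several stages.

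Most of the members were listed at 0 in each sample of head regeneration. The labels do not say where along the body the R2-R3 piece ended. Of the 150, 63 were listed at 0 in all 14 regeneration samples and 9 were above 0 in 1 sample. The other 78 were above 0 in at least 2 samples and could be tested, and 34 of these were above 0 in all 14. Between 83 and 102 members were listed at 0 in any regeneration sample, 96 and 102 of them at 0 h. Of all 17438 genes, 17287 could be tested, and between 698 and 1284 were listed at 0 in a regeneration sample. The rule chose members that were low in body column and budding zone beside foot. Its part in these counts was not tested. In whole pieces of tissue, fewer cells of a type and less RNA per cell cannot be told apart.

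The sum of the members rose late in the course as a description. It was 1102 and 546 at 0 h, 961 and 721 at 2 h, 2915 and 860 at 4 h, and 2091 and 1277 at 6 h. It stood at 4004 and 4794 at 12 h, 7634 and 6770 at 24 h, and 5291 and 2843 at 48 h. Both sums at 12 and 24 h were above all those of earlier times. Without the 3 highest members, Sc4wPfr_287.2.g28273, Sc4wPfr_20.g15630 and Sc4wPfr_758.g3710, the sums were 349 and 509 at 0 h, 626 and 686 at 2 h, 723 and 698 at 4 h, 971 and 607 at 6 h, 1288 and 1389 at 12 h, 1187 and 1048 at 24 h, and 938 and 615 at 48 h. These sums at 48 h were thus below those at 12 h and within the range of those from 2 to 6 h. Both at 12 h and both at 24 h stayed above all those from 0 to 6 h, and both at 24 h were below both at 12 h.

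The members most often had their highest level at 12 h. Of the 78 tested, 28 (35.9%) had their highest mean there, beside 14.4% of all 17287 genes tested. At 0 h it was 3 members (3.85%) beside 13.7% of all genes, and at 48 h 10 members (12.8%) beside 20.2%. The times between held 10 members at 2 h, 11 at 4 h, 6 at 6 h and 10 at 24 h. The rule chose members that were low in body column and budding zone beside foot. Over the 100 members found outside foot and buds the median was 0.1075 at 0 h and 0.105 in body column. Such a start leaves little room for a peak at 0 h or for a fall, and the set of all genes was not chosen so. The part of the choice in these shares, in the contrasts with 0 h and in the slopes was not tested.

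**Figure D4:**
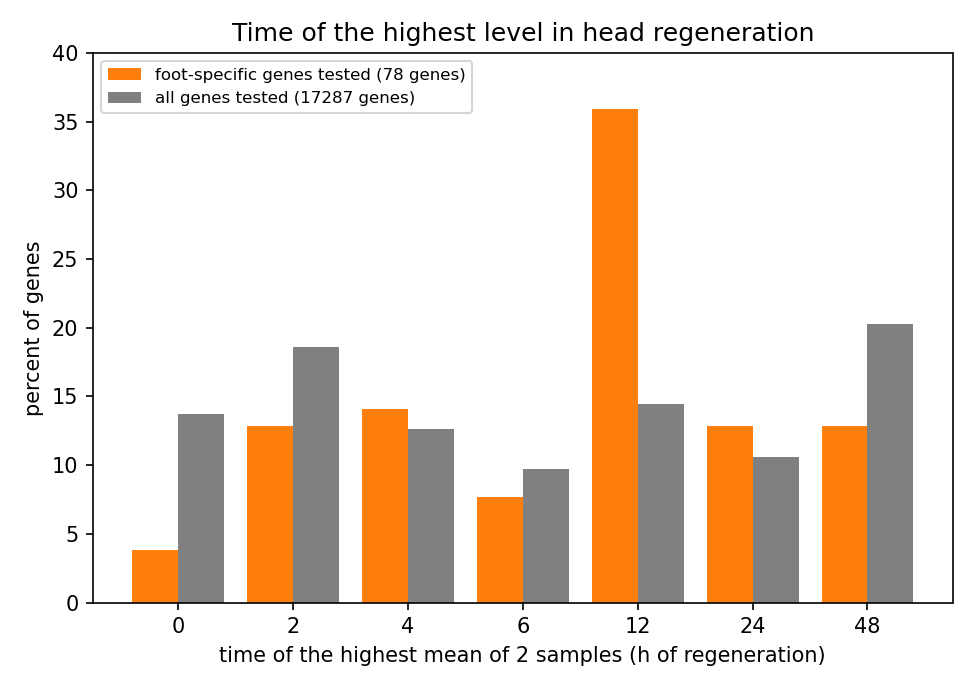
Percent of genes (y) whose highest mean of 2 samples fell at each time of head regeneration (x), for the 78 members tested (orange) and all 17287 genes tested (grey). The bar of the members stands at 35.9% at 12 h beside 14.4% of all genes, and at 3.85% at 0 h beside 13.7%.

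By the limma contrast of 12 h with 0 h, which was added after the values were seen, 24 members rose and 3 fell. The low start of the members at 0 h left little room for falls, and its part in this split was not tested. Over all genes tested 6.51% rose and 10.3% fell, a split that turned to 1474 rising and 863 falling, in place of 1125 and 1778, under median-ratio scaling. The median difference was 0.21 in log2(value + 1) for the tested members and -0.068 for all genes, and the latter was 0.031 under that scaling. Of the 24, 14 were above 0 in both 0 h samples and 8 were listed at 0 in both. The median of their means was 0.480 at 0 h, 11.9 at 12 h and 4.25 at 48 h. Their 12 h mean was 5.27% to 1328% of the foot mean, with a median of 67.5%, and exceeded the foot mean for 8. Of the 24, 23 were above 0 in at least 2 samples of other times and so would have entered the test without the 12 h samples.

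The smallest adjusted p of these belonged to Sc4wPfr_1172.g28449 and Sc4wPfr_758.g3710. Sc4wPfr_1172.g28449 had 5.19 and 5.06 at 12 h and was listed at 0 or at no more than 0.02 in the other 12 regeneration samples, a difference of 2.61 (SE 0.11, adjusted p 4.29e-06). Its foot values were 92.8 and 102. It entered the test through the 12 h samples alone, so it had to differ, and its values are a description. Sc4wPfr_758.g3710 was listed at 0 in the 8 samples from 0 to 6 h and had 585 and 767 at 12 h, 534 and 478 at 24 h, and 868 and 279 at 48 h, with a difference of 9.39 (SE 0.40, adjusted p 4.43e-06) between 12 h and 0 h. It was among the highest genes of the foot, with 5780 and 6691, and had 3.54 and 3.75 in tentacles. The first of these was thus a pulse at 1 time point and the second a step that lasted.

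Of the 3 members that fell at 12 h, those with the smallest adjusted p are given here. Sc4wPfr_1163.g25199 went from 2.68 and 2.55 at 0 h to 0.27 and 0.03 at 12 h (difference -1.66, SE 0.22, adjusted p 0.00159). Sc4wPfr_372.g28029 went from 22.5 and 22.5 to 14.7 and 16.6 (difference -0.50, SE 0.13, adjusted p 0.0330). The first has 10.6 and 10.5 in foot and the second 206 and 264. Without any 1 of 7 samples (replicate 2 of 0 h and both of 6, 12 and 24 h) 1 member fell. Of the 10 samples whose omission lost the call of Sc4wPfr_372.g28029, the largest adjusted p was 0.158, without replicate 1 of 12 h.

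Between 12 and 48 h, in a contrast that shares the 12 h samples and was also added later, 15 members fell and 5 rose. Over all genes tested 2.86% fell and 5.29% rose. Of the 24 members higher at 12 h, 14 were lower at 48 h than at 12 h, a count that the shared 12 h samples favor. Sc4wPfr_1172.g28449, which entered the test through its 12 h samples, was listed at 0 at 48 h (difference -2.61, SE 0.11, adjusted p 1.07e-06). Sc4wPfr_224.1.g33390 went from 7.56 and 6.10 to 0 in both samples (difference -2.96, SE 0.19, adjusted p 2.43e-05), and had 42.9 and 39.1 in foot. Among those that rose, Sc4wPfr_846.1.g25659 went from 0.02 and 0 to 1.89 and 0.86 (difference 1.199, SE 0.19, adjusted p 0.00490), and Sc4wPfr_396.g3018 from 0 and 0.16 to 2.61 and 1.23 (difference 1.40, SE 0.22, adjusted p 0.00497). Their foot values were 5.16 and 6.08, and 9.06 and 13.4. Of the 5, 2 rose without replicate 1 of 12 h, and 3 rose without replicate 2 of 12 h or without either sample of 48 h.

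At 48 h against 0 h, 11 members were higher and 2 lower. Over all genes tested 9.84% were higher and 11.1% lower. The 11 are 14.1% of the members tested. Sc4wPfr_758.g3710 differed by 8.95 (SE 0.40, adjusted p 2.40e-06). Its neighbor Sc4wPfr_758.g3709 went from 19.1 and 16.2 at 0 h to 188 and 279 at 12 h and 230 and 163 at 48 h, with a difference of 3.39 (SE 0.25, adjusted p 5.61e-05) between 48 h and 0 h, and had 2267 and 2602 in foot and 216 and 144 in body column. Of the 24 members higher at 12 h, 7 were also higher at 48 h than at 0 h, both contrasts sharing the 0 h samples. Sc4wPfr_1163.g25199 was lower, with 0 and 0.25 at 48 h (difference -1.69, SE 0.22, adjusted p 0.00106). So was Sc4wPfr_287.2.g28268, which went from 9.38 and 5.26 to 0.29 and 1.58 (difference -2.14, SE 0.66, adjusted p 0.0464), a call lost when any 1 of 10 of the 14 samples was left out (adjusted p 0.0562 to 0.247). Without replicate 1 of 48 h, 7 members were higher. The first step, 2 h against 0 h, moved 0 members by limma in either direction, with 12 at an unadjusted p under 0.05. Over all genes tested 0.185% rose and 0.0347% fell in that step.

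Over the order of the 7 times, the slope rose for 11 members and fell for 3. Over all genes tested 10% rose and 16.9% fell, so the rising share, 14.1% of the members tested, was near that background. The median slope was 0.027 per step for the members and -0.0069 for all genes. Sc4wPfr_842.g28764 had the smallest adjusted p of those that rose. It was listed at 0 in the 6 samples from 0 to 4 h and had 0 and 6.43 at 6 h, 43.0 and 47.4 at 12 h, 52.9 and 38.1 at 24 h, and 288 and 117 at 48 h. Its slope was 1.40 per step (SE 0.16, adjusted p 0.000634). Both 48 h values were above its foot values of 104 and 98.1, and it had 7.87 and 10.2 in tentacles. The slope of Sc4wPfr_758.g3709 was 0.62 (SE 0.089, adjusted p 0.00164). Falling slopes were those of Sc4wPfr_1163.g25199 (-0.34, SE 0.046, adjusted p 0.00157) and Sc4wPfr_372.g28029 (-0.10, SE 0.025, adjusted p 0.00893), which had 17.5 and 17.1 at 48 h.

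**Figure D5:**
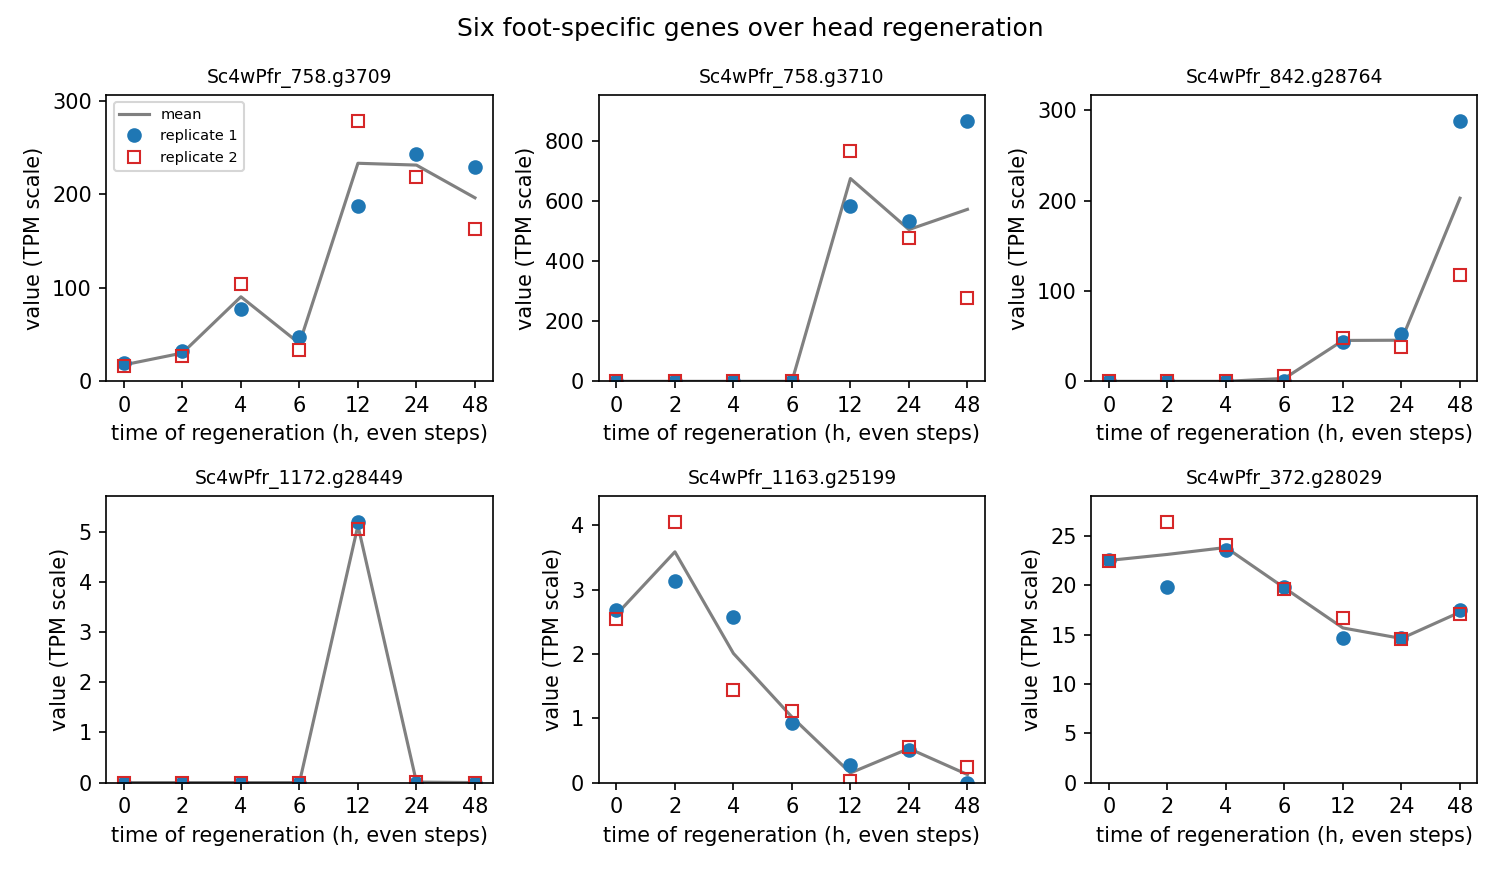
Values on the TPM scale (y) of 6 members over the 7 times of head regeneration (x, even steps), with a point for each sample and a line through the mean of 2. Sc4wPfr_758.g3710 steps from 0 to 585 and 767 at 12 h, Sc4wPfr_842.g28764 reaches 288 and 117 at 48 h, Sc4wPfr_1172.g28449 stands above 0.02 at 12 h alone, and Sc4wPfr_1163.g25199 and Sc4wPfr_372.g28029 decline.

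Members above their foot level in regeneration were found at a range of foot levels, from 6.73 to 1311, and 9 of the 10 were among the 24 that rose at 12 h. Sc4wPfr_20.g15630 was listed at 0 in all body map samples outside foot and at 0 and 2 h, and had 113 and 80.6 at 4 h, 194 and 238 at 6 h, 1604 and 1849 at 12 h, 760 and 782 at 24 h, and 95.1 and 0 at 48 h. Its foot values were 95.5 and 165. The difference between 12 h and 0 h was 10.75 (SE 1.51, adjusted p 0.00214). Sc4wPfr_287.2.g28273 had 753 and 37.0 at 0 h, 5154 and 4462 at 24 h, and 3390 and 1949 at 48 h, against 1758 and 865 in foot. Its samples differed widely at most times up to 6 h, and its difference between 12 h and 0 h did not pass (adjusted p 0.467). Sc4wPfr_178.g10680 had 13.2 to 23.4 in the 8 samples up to 6 h, 141 and 219 at 12 h, 172 and 132 at 24 h, and 44.7 and 17.2 at 48 h, against 75.9 and 109 in foot (difference 3.60 between 12 h and 0 h, SE 0.37, adjusted p 0.000465).

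The courses were then compared in one fit, with each slope scaled to the whole course. The bud slope lay below the regeneration slope for 11 members and above it for 1. Over all genes 2.51% lay below and 7.35% above. The median difference was -0.082 for the members and 0.19 for all genes, and the latter fell to 0.0061 under quantile normalization and -0.0080 under median-ratio scaling, where 628 and 730 of all genes lay below in place of 437, and 530 and 518 above in place of 1281. The largest difference with a call was that of Sc4wPfr_758.g3710 (-11.80, SE 1.79, adjusted p 0.000394), whose bud values stayed between 519 and 672 over the 16 samples. Sc4wPfr_842.g28764 differed by -8.50 (SE 0.94, adjusted p 5.44e-06), with bud values of 25.7 to 34.1. The bud values of these genes had a coefficient of variation of 7.31% and 8.89%, in that order. The median was 7.43% in the 50 members whose bud values are not read. Whether the flat bud courses of these genes can be read as expression was not tested, so nothing about budding is read from their differences. The 1 member above was Sc4wPfr_1163.g25199 (2.60, SE 0.37, adjusted p 0.000221), with 0.86 and 0.81 at stage 1 and 3.22 and 3.04 at stage 10. Its means from stage 3 to stage 8 lay between 0.945 and 1.54. By limma its bud slope had no call (0.077 per step, adjusted p 0.163), while its regeneration slope was -0.34 per step. Without any 1 of 4 samples (replicate 1 of stage 7, replicate 2 of stage 10, 0 h or 4 h) 2 members lay above, and without replicate 1 of 0 h 3 did.

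The members were spread over 121 scaffolds of the assembly, and 52 of them sat on 23 scaffolds with more than 1 member. Gene numbers followed the order along a scaffold in 99 of 99 pairs of gene models whose coordinates were at hand. Within 5 gene numbers of each other lay 31 members (20.7%) in 14 runs, 11 of 2 genes and 3 of 3. The 150 genes chosen by the same rule for hypostome had 36 (24.0%) in 15 runs. Close neighbors can be copies of one gene that share reads, or parts of one gene model, and their sequences were not used here. In the run of Sc4wPfr_270.1.g19688 and Sc4wPfr_270.1.g19689, the foot values were 1358 and 2182 for the one and 3107 and 3519 for the other, and both were listed at 0 throughout regeneration. The partner of the leading gene, Sc4wPfr_1300.g9821, had a foot mean of 992 and was also listed at 0 in regeneration.

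Of the 14 runs, 4 held a member that rose at 12 h, and in 1, Sc4wPfr_758.g3709 and Sc4wPfr_758.g3710, both did. Among the 31 members in runs 5 rose, beside 24 of all 150 members, a nearly equal share. Beside Sc4wPfr_20.g15630, with 1604 and 1849 at 12 h, the members Sc4wPfr_20.g15631 (276 and 413 in foot) and Sc4wPfr_20.g15634 (401 and 497 in foot) were listed at 0 in all 14 regeneration samples. Beside Sc4wPfr_178.g10680, Sc4wPfr_178.g10682 was listed at 0 in all of them, with 4518 and 6193 in foot. Beside Sc4wPfr_287.2.g28273, which peaked at 24 h, Sc4wPfr_287.2.g28268 fell between 0 and 48 h. The members of these runs shared the rule that chose them, while their foot levels ranged from 69.2 to 1311 within the Sc4wPfr_287.2 run and from 92.4 to 5356 within the Sc4wPfr_178 run.

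The copy of the combined gene annotation used here was shortened, and it held the coordinates of 1 member. Sc4wPfr_10.g18941 lies on scaffold Sc4wPfr_10 of the Hydra 2.0 assembly from 1656050 to 1656724 on the minus strand, as 1 exon of 675 bases. It had 11.5 ± 2.05 (SD, n = 2) in foot, 0.46 and 0.26 in body column, 0 and 1.07 in budding zone, and 0 in hypostome and tentacles. In regeneration it was listed at 0 in 10 of 14 samples, with a highest value of 0.41, and in buds it ran from 0.61 to 1.46. None of its contrasts passed the test.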

How the data were processed

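RNA was taken from 10 body map, 16 bud and 14 regeneration samples, and libraries made by a Smart-seq2 protocol were read as paired 43 bp reads. Per the submitters' processing notes and the study's methods, reads were trimmed with Trimmomatic 0.35, aligned to a reference transcriptome with Bowtie 1.2 and quantified with RSEM 1.2.31. The authors then adjusted the TPM with ComBat and normalized it with qsmooth, so the deposited values are an adjusted signal on the TPM scale and not counts. The batches used are not given in the sources used here. Sample sums ran from 997030 to 1014380 and show no depth, so no counting interval was given. In 18 of 20 conditions both samples held the same set of sorted values, and bud stages 6 and 7 held them crossed between the stages. The spread between samples may be understated for this reason, and p-values with it.

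The members, lists and tests were chosen with earlier results of these data known. Body map values chose the members and were not tested. Genes above 0 in at least 2 samples of a course were fitted with limma 3.58.1 (lmFit, eBayes with trend) in R 4.3.3 on log2(value + 1), which understates the change of low genes. All tests were two-sided, with Benjamini-Hochberg adjustment over all genes fitted and a threshold of 0.05. The analysis was planned for TPM, and the same test was kept for the adjusted signal. The script was tested on simulated data. With no gene names available, at most 2 members that rose and 2 that fell per comparison were named, those with the smallest adjusted p among members whose first and last conditions did not overlap, together with the 2 of largest ratio, those next to the limit and those in runs of neighboring gene numbers. Sc4wPfr_10.g18941 was named for its coordinates, after its values were seen. Other settings tried were log2(value + 0.1), a stricter filter (a value of 1 reached in 2 samples), quantile and median-ratio scaling, a replicate block, 100 members, other time scales and leaving out each sample. Tables were handled with pandas 2.3.3 and numpy 2.4.6 in Python 3.11.15, and figures drawn with matplotlib 3.10.9.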

Additional observations from a re-analysis of the deposited data

Results flagged for a closer look

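The change over budding and over regeneration differed for 12 members in the joint limma fit, where a value is the bud slope minus the regeneration slope in log2(value + 1) per whole course. The budding slope exceeded the regeneration slope for 1 member and lay below it for 11, beside 7.35% and 2.51% of all genes. The member above was Sc4wPfr_1163.g25199 at 2.60, and both Sc4wPfr_842.g28764 and Sc4wPfr_758.g3710, at -8.50 and -11.80, lay far below. The neighbor of the latter, Sc4wPfr_758.g3709, stood at -4.10 and Sc4wPfr_396.g3018 at -1.14. For these genes the bud slope had no call of its own. Sc4wPfr_47.1.g2198 at -2.80 and Sc4wPfr_958.g18779 at -2.79 fell in buds, and the first was listed at 0 in all regeneration samples. Bud values cannot be read as levels for many members, and the part of that in these differences was not tested.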

How the results depend on the processing

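No named gene turned direction under a setting that was run. Counts of rises and of falls were each compared by size alone, and in budding the 0 rises became up to 4. Over all genes, the median slope went from 0.0052 to -0.021 in budding under quantile normalization, and under median-ratio scaling from -0.0069 to 0.010 in regeneration. With a pseudocount of 0.1, 1 member fell in budding and 2 had a bud slope above that of regeneration. With a minimum of 1 in 2 samples, 1 member rose in budding and 3 rose from 12 to 48 h. Quantile normalization gave 28 falls in budding, and median-ratio scaling left 1 fall each at 48 h and at 12 h against 0 h. With stage numbers in place of stage order 1 member rose in budding, and with the last against the first stage 4 did. Without stages 6 and 7, an alternative chosen after seeing the data, 3 rose in budding and 3 lay above in the slope difference. The 100 members of largest ratio gave 1 fall in budding, 6 rises and 1 fall over regeneration, 0 above and 7 below in the slope difference, 6 rises and 0 falls at 48 h and 13 rises at 12 h against 0 h, and 3 rises and 6 falls from 12 to 48 h, counts that shrink by construction. Replicate numbers did not pair the samples: deviations correlated at -0.34 to 0.36 between bud stages (over 0.1 in 2 of 28 pairs) and -0.10 to 0.21 between times (4 of 21). With the replicate block 1 member in place of 2 was lower at 48 h than at 0 h, and Sc4wPfr_287.2.g28268 had an adjusted p of 0.0544; no other count moved by over 1.5 times.

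Leaving out 1 sample gave 0 to 2 rises and 0 to 4 falls in budding, 9 to 13 and 2 to 4 in regeneration, 1 to 3 above and 10 to 12 below in the slope difference, 0 to 1 and 0 to 0 at 2 h, 7 to 13 and 1 to 3 at 48 h, 19 to 24 and 1 to 4 at 12 h against 0 h, 2 to 6 and 11 to 18 from 12 to 48 h, and 0 to 2 and 0 to 0 for stage 10 against stage 8. Without either sample of 48 h, 1 member rose at 2 h. A condition left with 1 sample was assumed to vary like the others. Of the named genes, Sc4wPfr_958.g18779 lost its budding call with the smaller pseudocount (adjusted p 0.0517), Sc4wPfr_372.g28029 its slope call over hours (0.0756) and its 12 h call under quantile (0.0890) and median-ratio scaling (0.140), and Sc4wPfr_287.2.g28268 its call under median-ratio scaling (0.0610). Over all genes, median-ratio scaling gave 405 rises in budding in place of 1085, 2281 rises and 1711 falls over regeneration in place of 1734 and 2927, and 2080 rises and 1015 falls at 48 h in place of 1701 and 1913. With 2 samples per condition and depth unknown, the error of low values such as those of Sc4wPfr_396.g3018 can be judged from the spread of the samples alone.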
